A study of Arabidopsis thaliana with 6 samples.

Results

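Genes of a single exon bin are genes that the flattened annotation behind the exon counts leaves in 1 piece, so their annotated transcripts need no splicing. They were taken as the genes with exactly 1 row in the exon bin table, not merged with an overlapping gene, not named as genes of the chloroplast or mitochondrial genome, and with a CPM (read counts scaled to the library's size) of at least 1 in at least 3 of the 6 libraries. Of 33977 genes, 9062 had a single bin and 2339 of these met the CPM minimum. They were set beside 15468 genes of 2 or more bins that met the same minimum. RefSeq listed 2319 of the 2339 by identifier, each with the same start and end and each with 1 exon. The 2339 comprised 2137 protein-coding genes, 76 snoRNAs, 63 lncRNAs, 23 other ncRNAs, 15 miRNA precursors, 4 tRNAs, 1 snRNA and 20 RNAs not listed in RefSeq, 9 of which lie on the organelle genomes under other identifiers.

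RNA was sequenced from ovules of Arabidopsis thaliana, dissected from flowers of stages 13 to 14, when the embryo sac is fully developed, on plants 6 weeks old. The PRP8Aa prp8bb group has 3 libraries. Its plants carry T-DNA insertions and are heterozygous for the PRP8A insertion and homozygous for the PRP8B insertion. The ovules are therefore a mixture, with embryo sacs of the PRP8A;prp8b and the prp8a;prp8b genotypes. The wild type (WT) group has 3 libraries. The mixed ovules limit the group as a model, since each library averages over both embryo sac genotypes and over sporophytic and embryo sac cells.

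PRP8 is the large protein at the catalytic centre of the spliceosome, where it holds the U5 snRNA and the splice sites in place. Genes without introns are not substrates of that reaction. In Arabidopsis many families that arose by retroposition or tandem duplication have no introns, among them most pentatricopeptide repeat (PPR) genes, replication-dependent histones and many small secreted proteins of the embryo sac.

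The stretches just before the start are shown for some of the changed genes, and no link between these sequences and the changes was tested. Shown are 250 bases upstream of the annotated start, read on the gene's strand from the RefSeq TAIR10.1 genome, for the fallen gene of smallest p in each of 4 families of secreted proteins, for the DUF784 gene of smallest p among those with the motif GTAACNT, and for the 2 risen genes of smallest p. Capitals mark GTAACNT (the sequence bound by MYB98, a transcription factor of the synergid cells), TTGAC (the core of the W-box of WRKY factors), CACGTG (the G-box) and TATAAA (the TATA box), each searched on both strands, so that GTCAA and TTTATA are also in capitals. No motif contains another, and CACGTG reads the same on both strands. AT5G34905 (chr5:13222819-13223068, plus strand) and AT1G57760 (chr1:21389753-21390002, plus strand) are DUF784 genes. AT5G51105 (chr5:20777324-20777573, plus strand) encodes a DUF1278 protein. AT2G06090 (chr2:2372051-2372300, minus strand) encodes a protein of the self-incompatibility S1 type, and AT1G11593 (chr1:3897752-3898001, plus strand) a pectin methylesterase inhibitor. AT2G34810 (chr2:14684920-14685169, plus strand) encodes a berberine-bridge-type oxidase and ABCG1 (chr2:16432752-16433001, minus strand) an ABC transporter of the G type.
AT5G34905: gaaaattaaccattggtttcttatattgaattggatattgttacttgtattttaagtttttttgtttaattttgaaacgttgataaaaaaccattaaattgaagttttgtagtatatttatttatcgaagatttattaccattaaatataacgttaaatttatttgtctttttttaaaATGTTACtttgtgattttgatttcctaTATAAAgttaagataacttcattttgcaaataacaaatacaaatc
AT1G57760: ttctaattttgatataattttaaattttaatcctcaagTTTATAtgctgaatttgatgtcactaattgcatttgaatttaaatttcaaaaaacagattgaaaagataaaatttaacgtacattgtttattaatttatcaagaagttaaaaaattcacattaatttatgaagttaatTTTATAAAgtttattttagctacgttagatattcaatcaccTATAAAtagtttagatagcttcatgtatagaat
AT5G51105: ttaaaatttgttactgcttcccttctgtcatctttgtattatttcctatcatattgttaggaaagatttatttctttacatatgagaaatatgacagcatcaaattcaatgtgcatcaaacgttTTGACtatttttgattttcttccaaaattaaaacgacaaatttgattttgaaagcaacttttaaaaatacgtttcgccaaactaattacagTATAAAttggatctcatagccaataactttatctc
AT2G06090: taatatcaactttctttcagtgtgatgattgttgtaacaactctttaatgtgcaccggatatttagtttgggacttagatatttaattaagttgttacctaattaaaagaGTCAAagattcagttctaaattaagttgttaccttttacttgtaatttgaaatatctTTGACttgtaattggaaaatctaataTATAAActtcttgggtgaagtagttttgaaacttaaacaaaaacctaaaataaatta
AT1G11593: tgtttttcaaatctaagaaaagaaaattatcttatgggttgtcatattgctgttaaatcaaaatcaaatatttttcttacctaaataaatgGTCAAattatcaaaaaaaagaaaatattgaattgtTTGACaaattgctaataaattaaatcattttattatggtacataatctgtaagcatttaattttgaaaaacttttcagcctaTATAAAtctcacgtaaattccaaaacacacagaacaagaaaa
AT2G34810: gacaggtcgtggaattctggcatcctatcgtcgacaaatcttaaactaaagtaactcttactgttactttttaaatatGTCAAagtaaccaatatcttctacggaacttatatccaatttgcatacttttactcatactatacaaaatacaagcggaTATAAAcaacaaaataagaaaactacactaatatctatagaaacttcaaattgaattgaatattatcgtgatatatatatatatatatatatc
ABCG1: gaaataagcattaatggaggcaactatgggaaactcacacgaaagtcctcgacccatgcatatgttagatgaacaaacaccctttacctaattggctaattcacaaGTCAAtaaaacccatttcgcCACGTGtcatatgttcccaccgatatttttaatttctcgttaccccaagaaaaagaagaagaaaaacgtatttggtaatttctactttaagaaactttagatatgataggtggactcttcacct

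Among 2137 single-bin protein-coding genes, GTAACNT was in 281 windows (13.1%) and TATAAA in 1020 (47.7%). Over the windows of 27436 protein-coding genes of every bin number the shares were 11.4% and 47.4%. GTAACNT was in 18 of 32 DUF784 windows (56.2%), 2 of 12 DUF1278 windows (16.7%), 5 of 18 S1 windows (27.8%) and 2 of 24 pectin methylesterase inhibitor windows (8.33%). TTGAC was in 10 of 32 DUF784 windows (31.2%), 10 of 12 DUF1278 windows (83.3%), 12 of 18 S1 windows (66.7%) and 12 of 24 inhibitor windows (50%), and in 44.9% of the windows of all protein-coding genes. TATAAA was in 26, 10, 10 and 13 windows of these families in the same order, and CACGTG in 1 DUF1278 window and in none of the other 3 families, where 6.49% of all windows held it. GTAACNT was in 31 of the 103 windows of fallen protein-coding genes (30.1%) and in 6 of the 73 windows of risen ones (8.22%). For fallen and risen genes the shares were 67.0% and 46.6% for TATAAA, 49.5% and 50.7% for TTGAC, and 2.91% and 6.85% for CACGTG. These are counts of letters in a fixed window and no test was made of them. DUF784 relatives share sequence, so their windows are not independent.

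Gene counts totalled 11261844 to 12644525 in the PRP8Aa prp8bb libraries and 8497702 to 12460805 in the WT libraries. WT replicate 1 stands apart: even values make up 77.6% of its gene counts above 0, where the other libraries have 47.7% to 48.6%, and over single-bin genes its bin counts come to 0.513 of its gene counts, where the others have 1.01. Its counts were used as deposited, and all 183 calls below were also made with them divided by 2. Organelle genes took 21.0% of the counts in PRP8Aa prp8bb replicate 2 and 13.7% to 15.4% in the other libraries. PRP8A had a log2 fold change of -0.32 (adjusted p = 0.105, edgeR) and PRP8B of 0.22 (adjusted p = 0.251). Of the 6 ovule and integument markers, all were detected in every library and 2 fell. Of the 9 pollen markers, 2 rose, and their summed level was 765, 301 and 606 CPM in the PRP8Aa prp8bb libraries, against 364, 361 and 358 CPM in WT libraries. Of the 6 green tissue markers 1 fell, with sums of 3208 to 3995 CPM in PRP8Aa prp8bb libraries and 3749.9 to 4561 CPM in WT libraries. Sums for the petal and stamen genes AP3 and PI were 11.3 to 16.7 CPM in PRP8Aa prp8bb libraries and 18.5 to 22.5 CPM in WT libraries, and of the 2 genes PI rose.

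Single-bin genes took 6.18%, 6.42% and 6.49% of the gene counts in the PRP8Aa prp8bb libraries and 6.82%, 6.79% and 6.66% in the WT libraries. The ranges do not overlap, and the shares differ by less than 1 percentage point. These are shares of all gene counts, organelle genes included. In CPM the 2137 protein-coding members summed to 52862.5, 59221.9 and 55188.5 in the PRP8Aa prp8bb libraries. In the WT libraries their sums were 54534.9, 54437.4 and 52222 CPM, so these ranges overlap. All 2339 genes passed the filter on low counts of the fit, and edgeR's quasi-likelihood test with Benjamini-Hochberg adjustment over all 19297 genes tested called 75 of them higher and 108 lower at an adjusted p under 0.05. Over all genes tested 5.85% were called in either direction, 3.05% higher and 2.79% lower. Of the single-bin genes 7.82% were called, 3.21% higher and 4.62% lower. Genes of 2 or more bins were called in 5.64% of cases, with 487 higher and 385 lower. Leaving out 1 library moved these counts: without PRP8Aa prp8bb replicate 3 the single-bin calls were 29 higher and 39 lower, without WT replicate 3 they were 33 higher and 45 lower, and without WT replicate 2 the higher calls were 47. Over all genes tested the calls were 1.27% higher and 0.921% lower (2.19% in all) without PRP8Aa prp8bb replicate 3, and 1.32% higher and 1.02% lower (2.34% in all) without WT replicate 3. They were 2.12% higher and 2.29% lower (4.41% in all) without WT replicate 2.

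The shares under other settings are given with those of all genes tested. DESeq2 called 101 single-bin genes higher and 141 lower (10.3%), where 4% and 3.64% of all genes tested were called (7.64% in all). Single-bin calls were 7.74% with upper-quartile factors, where all genes tested had 5.78%, and 7.40% with limma-voom, where all had 5.43%. They were 9.15% with no filter on low counts (all genes 5.49%), 7.78% with a filter of 1 CPM in 3 libraries (5.65%), 8.07% without organelle and rRNA genes (6.14%) and 8.55% with WT replicate 1 divided by 2 (6.41%). With counts summed over exon bins, 6.54% of single-bin genes were called (all genes 5.9%). Without WT replicate 1, PRP8Aa prp8bb replicate 1 and PRP8Aa prp8bb replicate 2 the single-bin calls were 8.72%, 9.23% and 6.76%, and those of all genes 7.12%, 6.32% and 4.83%.

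Single-bin genes had lower counts than the others, with a median level of 7.38 CPM against 20.8 CPM for genes of 2 or more bins. Per kilobase of exon, the median levels were 5.93 and 11.2 CPM per kb. To set genes of like level side by side, the single-bin genes were divided into 10 strata of mean log2(CPM + 0.5), and the percentages of the multi-bin genes were weighted to the single-bin genes' strata. On that scale 7.55% of multi-bin genes were called, 3.75% higher and 3.79% lower, beside the 7.82% of single-bin genes. The order of these shares depended on the setting. With counts summed over exon bins 6.54% of single-bin genes and 7.60% of weighted multi-bin genes were called, and without PRP8Aa prp8bb replicate 3 the shares were 2.91% and 3.24%. Without WT replicate 3 they were 3.33% and 3.30%, with DESeq2 10.3% and 9.21%, and with limma-voom 7.40% and 6.83%. Without PRP8Aa prp8bb replicate 1 they were 9.23% and 7.04%. With strata of level per length the weighted multi-bin share was 6.53%, beside the 7.82% of single-bin genes. The median log2 fold change was -0.01 in single-bin genes, -0.03 in the weighted multi-bin genes and -0.01 over all genes tested. No test was made of the difference between the classes. Calls by bin number were 8.99% in genes of 2 to 3 bins, 5.61% in genes of 4 to 9, 4.16% in genes of 10 to 19 and 4.25% in genes of 20 or more.

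Falls were found mostly among single-bin genes of low level. With a minimum of 5 CPM in 3 libraries, 51 single-bin genes were higher and 42 lower (6.45% called), where 2.96% and 1.97% of all genes that met it were called (4.93% in all), so falls no longer outnumbered rises. In the 3 lowest strata, of 234 genes each, 22, 27 and 20 genes fell (9.40%, 11.5% and 8.55%), where 11.2%, 7.35% and 5.02% of multi-bin genes fell. In the highest stratum 1 gene fell (0.427%), beside 1.34% of multi-bin genes. Rises were more even. In each of strata 1 to 6 a smaller share of single-bin than of multi-bin genes rose, for example 5 genes (2.14%) in stratum 2 beside 4.90%. In each of strata 7 to 10 the share was larger, for example 11 genes (4.70%) in stratum 10 beside 3.45%.

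**Figure D1:**
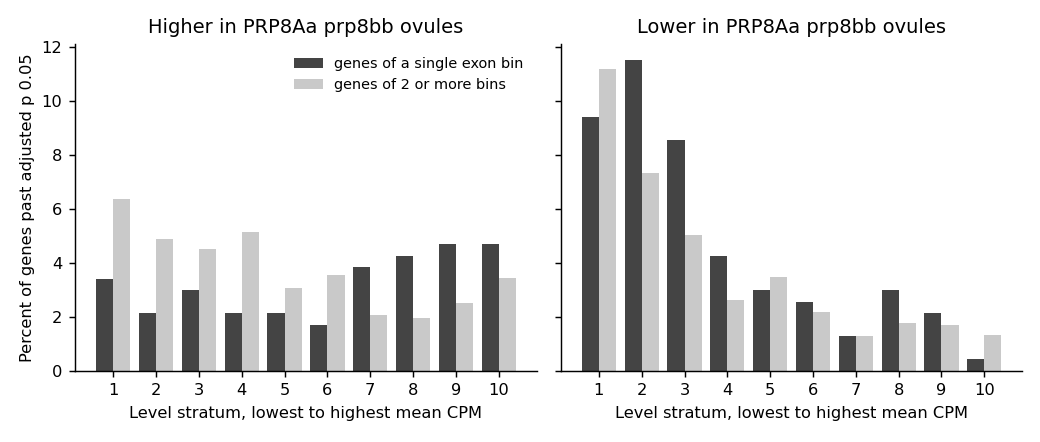
Percent of genes past an adjusted p of 0.05 (y axis) in 10 strata of level (x axis, lowest to highest mean CPM), for genes of a single exon bin (dark bars) and genes of 2 or more bins (light bars), higher (left) or lower (right) in PRP8Aa prp8bb ovules. Among single-bin genes the percent lower is largest in stratum 2 (11.5%) and smallest in stratum 10 (0.427%).

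The fallen genes were short and of low level: their median exon length was 619 bases and their median level 3.16 CPM, and 73 of the 108 had under 5 CPM. The 75 risen genes had medians of 1532 bases and 15.1 CPM, and all 2339 single-bin genes a median length of 1359 bases. Per length the medians were 5.08 CPM per kb in the fallen genes and 8.99 CPM per kb in the risen ones. Of the 2339 genes, 50 met the CPM minimum in all 3 WT libraries and in no PRP8Aa prp8bb library, and 31 of these were called. Another 14 met it only in the PRP8Aa prp8bb libraries, and 10 were called. Such genes had to differ, so where a list below holds called genes of this kind its count is also given without them. Where CPM ranges are compared, 277 single-bin genes lay higher and 343 lower in all PRP8Aa prp8bb libraries, beside 12.6% and 12.9% of all genes tested.

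**Figure D2:**
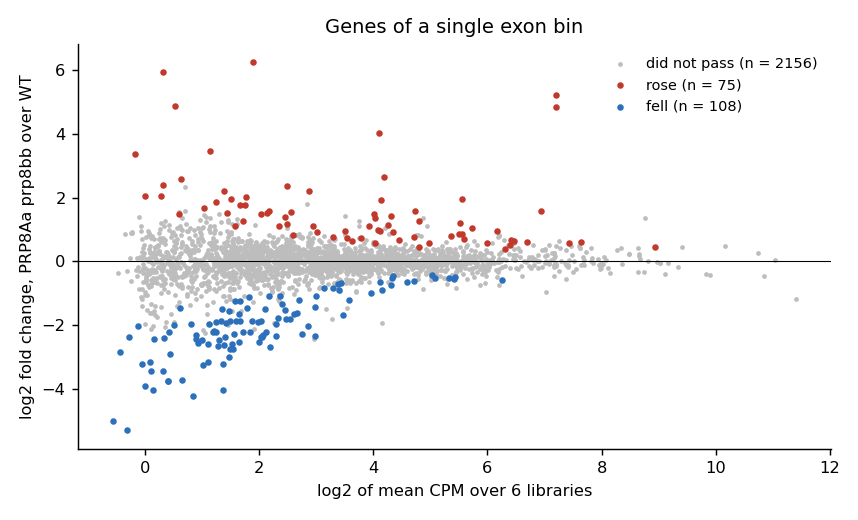
Log2 fold change, PRP8Aa prp8bb over WT (y axis), against log2 of the mean CPM over 6 libraries (x axis) for the 2339 genes of a single exon bin. Points are genes that rose (red, 75), fell (blue, 108) or did not pass an adjusted p of 0.05 (grey); most blue points lie at low level.

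A set of 4 families of secreted proteins held 55 of the 108 fallen genes, and was put together because its members fell. Of their 86 single-bin genes, 55 fell and none was called higher, where 2.79% of all genes tested were called lower. The median log2 fold change of the 86 was -1.89, beside -0.01 over all genes tested. Outside them, 75 of 2253 single-bin genes rose and 53 fell (5.68% called, beside 5.85% over all genes tested). The 5.85% still includes these families, and leaving out genes chosen for their falls had to lower the single-bin share. Of the 4 families, 3 were grouped after the values were seen, so their counts describe these libraries and are no independent support. Not every family of small secreted proteins fell: of 8 lipid-transfer or 2S albumin genes none was called by edgeR, DESeq2 or limma-voom. Their median log2 fold change was -0.38, and 4 had an unadjusted p under 0.05, a level that 19% of all genes tested passed. Left with the genes not admitted by 1 group alone, 37 of 63 fell in the families, and outside them 65 of 2212 rose and 40 fell. Without PRP8Aa prp8bb replicate 3 or without WT replicate 3, 29 of the 86 fell. RNA came from whole ovules, so fewer cells of a type and less RNA per cell cannot be told apart in any of these results. The summed level of the 6 ovule and integument markers was also lower, at 339.8, 320.03 and 326 CPM in PRP8Aa prp8bb libraries, against 351, 408 and 368 CPM in WT libraries, and its part in the result was not tested.

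The DUF784 genes, also annotated as ECA1 gametogenesis or prolamin-like genes, encode short cysteine-containing secreted proteins, and several are known from the embryo sac. Of 32 single-bin members, 27 fell and all 32 had lower CPM in every PRP8Aa prp8bb library than in any WT library. The median log2 fold change was -2.37. With the 8 genes that only WT libraries admitted left out, 20 of 24 fell. Without PRP8Aa prp8bb replicate 3 the count was 13 and without WT replicate 3 it was 15. Their summed level was 45.4, 15.5 and 31.4 CPM in PRP8Aa prp8bb libraries, against 189, 122 and 164 CPM in WT libraries. The PRP8Aa prp8bb library of lowest sum was replicate 2, and no sum overlapped between the groups. Another 57 single-bin genes of the family lay under the CPM minimum, 33 of them with no count in any library.

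AT1G57760, whose upstream window is shown above, had 0.605, 0.203 and 0.617 CPM in PRP8Aa prp8bb libraries, against 5.38, 3.51 and 5.11 CPM in WT libraries. This is a log2 fold change of -3.22 (SE 0.40, adjusted p = 0.00188, edgeR). The groups are far apart. This gene and DD18, described below, were among the 8 that only WT libraries admitted, so that a difference was fixed by the CPM minimum. AT2G21655 had 1.06, 0.608 and 0.529 CPM in PRP8Aa prp8bb libraries, against 6.08, 3.90 and 5.42 CPM in WT libraries (log2 fold change -2.75, adjusted p = 0.00203). AT3G01185 had 1.66, 1.22 and 1.06 CPM in PRP8Aa prp8bb libraries, against 9.11, 5.77 and 6.11 CPM in WT libraries (log2 fold change -2.38, adjusted p = 0.00192). In all 3 genes every PRP8Aa prp8bb library lay under every WT library.

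The family also holds DD18 and DD11, named for being lower in ovules of the dif1 mutant, which lack embryo sacs. DD18 had 0.681, 0.405 and 0.705 CPM in PRP8Aa prp8bb libraries, against 3.04, 3.35 and 3.79 CPM in WT libraries (log2 fold change -2.47, adjusted p = 0.00331, edgeR). DD11 had 3.78, 1.72 and 1.76 CPM in PRP8Aa prp8bb libraries, against 9.82, 7.17 and 8.98 CPM in WT libraries. It fell by 1.80 on the log2 scale (adjusted p = 0.00815), and without PRP8Aa prp8bb replicate 3 its adjusted p was 0.0552. Both genes had non-overlapping ranges. The 32 DUF784 genes lie on 5 chromosomes, and 14 of 32 have another of the 32 starting within 20 kb. The median identity of a gene to its closest relative among the 32 was 86.3% over the gene. Of the 32, 7 genes, DD18 among them, had a relative in the list of over 90% identity. Relatives outside the 32 were not compared, so more genes may have a close copy. Reads of these 7 may be shared between copies, so their separate values are uncertain.

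**Figure D3:**
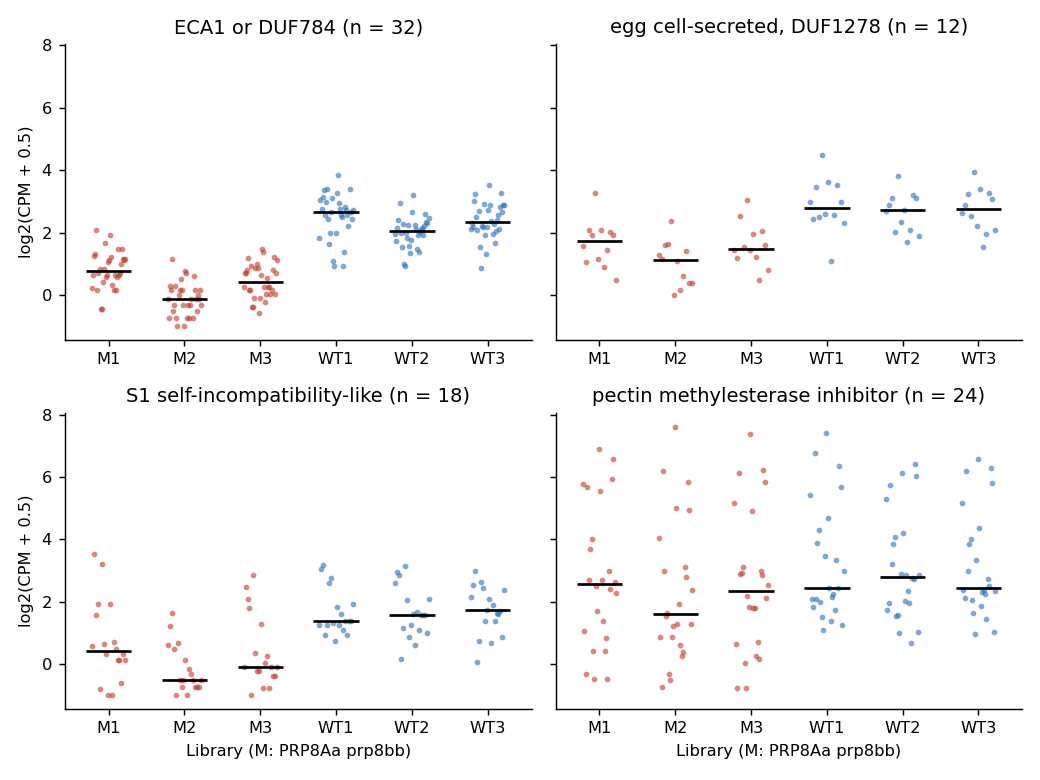
log2(CPM + 0.5) (y axis) of each single-bin gene of 4 families in each library (x axis, PRP8Aa prp8bb libraries M1 to M3 in red, WT libraries in blue); points are genes and bars are medians. In the DUF784, DUF1278 and S1 families the medians of all PRP8Aa prp8bb libraries lie under those of all WT libraries, and M2 is lowest; the pectin methylesterase inhibitors overlap.

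DUF1278 genes encode egg cell-secreted proteins, among them the EC1 proteins, which the egg cell releases when sperm arrive and which are needed for gamete fusion. Of 12 single-bin members 10 fell, with a median log2 fold change of -1.58 and none admitted by WT libraries only. Without WT replicate 3 the count was 4, and without PRP8Aa prp8bb replicate 3 it was 5. Their summed level was 36.98, 20.98 and 35.01 CPM in PRP8Aa prp8bb libraries, against 97.0, 75.5 and 82.3 CPM in WT libraries. These sums do not overlap. AT5G51105 had 1.59, 1.72 and 1.76 CPM in PRP8Aa prp8bb libraries, against 4.91, 6.94 and 6.89 CPM in WT libraries (log2 fold change -1.89, SE 0.25, adjusted p = 0.00251, edgeR), and AT2G27315 fell by 1.61 on the log2 scale (adjusted p = 0.00407).

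All 5 EC1 genes are single-bin genes, and 4 fell. EC1.1 had 2.50, 1.93 and 2.20 CPM in PRP8Aa prp8bb libraries, against 7.48, 6.00 and 5.65 CPM in WT libraries (log2 fold change -1.51, SE 0.24, adjusted p = 0.00591, edgeR). EC1.4 had 0.908, 0.811 and 1.23 CPM in PRP8Aa prp8bb libraries, against 4.44, 3.20 and 3.71 CPM in WT libraries (log2 fold change -1.92, adjusted p = 0.00706). Neither gene's ranges overlapped. EC1.5 and EC1.3 had log2 fold changes of -1.64 (adjusted p = 0.0419) and -1.56 (adjusted p = 0.0426). EC1.5 did not pass without any 1 library other than PRP8Aa prp8bb replicate 2, with an adjusted p up to 0.119, and EC1.3 passed only without PRP8Aa prp8bb replicate 1, with an adjusted p of up to 0.185 without each other library. The count of EC1 genes that fell was 2 without each of the WT libraries and without PRP8Aa prp8bb replicate 3. EC1.2 had 1.36, 0.608 and 1.85 CPM in PRP8Aa prp8bb libraries, against 1.64, 2.73 and 2.40 CPM in WT libraries, with overlapping ranges, a log2 fold change of -0.82 and an adjusted p of 0.32.

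Proteins of the S1 self-incompatibility type are short secreted proteins named after the stigma S protein of poppy. Of 18 single-bin members 11 fell, 17 of 18 were negative, and the median log2 fold change was -2.14. Only WT libraries admitted 10 of them, and of the other 8 genes 4 fell. Without PRP8Aa prp8bb replicate 3 or WT replicate 3 the count was 6. AT2G06090, admitted by WT libraries only, had 0.151, 0.101 and 0.265 CPM in PRP8Aa prp8bb libraries, against 2.10, 2.50 and 2.79 CPM in WT libraries (log2 fold change -3.75, SE 0.46, adjusted p = 0.00185, edgeR). AT4G24974, likewise admitted, and AT1G56385 fell by 3.15 (adjusted p = 0.00192) and 2.76 (adjusted p = 0.006) on the log2 scale. The most negative log2 fold changes of all single-bin genes were in this family, in genes that met the CPM minimum through WT libraries only and so had to differ. AT1G51240 had 1 count over the 3 PRP8Aa prp8bb libraries and 53 over the WT libraries, a ratio of 53.2 in favour of WT with an exact 95% counting interval of 9.14 to 2140.03 (adjusted p = 0.00385). AT5G27238 had 1 count against 43, a ratio of 43.2 with an interval of 7.34 to 1743.6 (adjusted p = 0.00723). WT replicate 1, most of whose counts are even, held 16 of the WT counts of each gene, and the intervals take them as separate counts. Without that library the ratios were 49.5 (8.35 to 2006) for AT1G51240 and 36.1 (5.95 to 1478) for AT5G27238. Their fitted log2 fold changes were -5.31 and -5.02, and were -7.13 for AT1G51240 without PRP8Aa prp8bb replicate 1 and -6.90 for AT5G27238 without PRP8Aa prp8bb replicate 3, the libraries that hold the single count. AT5G12060, also admitted by WT libraries only, fell by 3.44 on the log2 scale (adjusted p = 0.0179); its log2 fold change was -2.78 without PRP8Aa prp8bb replicate 1 and -4.35 without PRP8Aa prp8bb replicate 3, and it did not pass without that library or without WT replicate 3 (adjusted p up to 0.111).

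Pectin methylesterase and invertase inhibitors act on cell wall pectin and on sugar supply. Of 24 single-bin members 7 fell, with a median log2 fold change of -0.35 and 5 admitted by WT libraries only; of the other 19 genes 3 fell. The count was 4 without WT replicate 3. AT1G11593, AT1G56620 and AT3G17225 are among these 5. AT1G11593 had 0.303, 0.101 and 0.0882 CPM in PRP8Aa prp8bb libraries, against 3.04, 3.43 and 3.87 CPM in WT libraries (log2 fold change -4.24, SE 0.46, adjusted p = 0.00101, edgeR), and its log2 fold change was -5.04 without PRP8Aa prp8bb replicate 1. AT1G56620 and AT3G17225 fell by 3.76 (adjusted p = 0.00159) and 2.38 (adjusted p = 0.00188) on the log2 scale. AT5G46960 had 2.72, 1.82 and 3.09 CPM in PRP8Aa prp8bb libraries, against 10.5, 6.94 and 9.67 CPM in WT libraries (log2 fold change -1.81, adjusted p = 0.00378). Not all members lay lower in PRP8Aa prp8bb ovules: 8 of 24 had a positive log2 fold change.

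Signal peptides of the CLE and RALF types are short secreted ligands of receptor kinases. Of 31 single-bin members 4 fell and none went up at the threshold. These calls are 12.9% of the list, where 2.79% of all genes tested were called lower. Without RALFL28, which only WT libraries admitted, 3 of 30 fell. Their median was -0.16 (log2 fold change), and all 4 were RALF-like genes. RALFL28 had 0.227, 0 and 0.0882 CPM in PRP8Aa prp8bb libraries, against 1.87, 1.25 and 2.55 CPM in WT libraries (log2 fold change -3.92, SE 0.67, adjusted p = 0.00779, edgeR). Its log2 fold change was -5.03 without PRP8Aa prp8bb replicate 1, and it did not pass without WT replicate 3 or PRP8Aa prp8bb replicate 3 (adjusted p up to 0.0619). RALFL29 had 0.908, 0.507 and 1.06 CPM in PRP8Aa prp8bb libraries, against 4.44, 2.34 and 4.72 CPM in WT libraries (log2 fold change -2.17, adjusted p = 0.0122), and did not pass without WT replicate 3 or PRP8Aa prp8bb replicate 3 (adjusted p up to 0.079). RALFL24 fell by 0.65 on the log2 scale (adjusted p = 0.0432) and did not pass without any 1 library (adjusted p up to 0.115). RALFL18 fell by 1.25 (adjusted p = 0.0437) and passed only without WT replicate 1 or PRP8Aa prp8bb replicate 1 (adjusted p up to 0.169 without the others). The ranges of these genes did not overlap, but without WT replicate 3 or PRP8Aa prp8bb replicate 3 the list had no call. Without WT replicate 2 or PRP8Aa prp8bb replicate 2 it had 2.

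Aspartyl proteases of the single-bin class, listed after the values were seen, fell in 4 of 19 cases, while the median of the 19 was 0.14. These calls are 21.1% of the list, where 2.79% of all genes tested were called lower. Without 2 genes that only WT libraries admitted, AT2G28010 among them, 3 of 17 fell. CDR1, whose product acts in disease resistance, had 4.08, 1.93 and 2.38 CPM in PRP8Aa prp8bb libraries, against 10.5, 14.3 and 10.3 CPM in WT libraries (log2 fold change -2.04, SE 0.28, adjusted p = 0.0028, edgeR). AT2G35615 had 6.58, 3.65 and 5.29 CPM in PRP8Aa prp8bb libraries, against 18.2, 15.1 and 17.5 CPM in WT libraries (log2 fold change -1.69, adjusted p = 0.00181). AT2G28010 fell by 2.56 on the log2 scale (adjusted p = 0.00591). Each kept its call without any 1 library. AT1G31450 fell by 1.54 (adjusted p = 0.00908) and did not pass without WT replicate 3 or PRP8Aa prp8bb replicate 3 (adjusted p up to 0.0651). Among other fallen genes, AT1G14455, an uncharacterized gene admitted by WT libraries only, had 0.227, 0.203 and 0.441 CPM in PRP8Aa prp8bb libraries, against 3.74, 5.93 and 5.03 CPM in WT libraries (log2 fold change -4.04, SE 0.40, adjusted p = 0.000648). LECRKA4.1, a lectin receptor kinase, had 4.16, 3.55 and 5.03 CPM in PRP8Aa prp8bb libraries, against 12.4, 10.3 and 11.9 CPM in WT libraries (log2 fold change -1.43, adjusted p = 0.00252), 1 of 3 fallen and 1 risen among 92 genes of the kinase list. These calls are 4.35% of the list, under the 5.85% of all genes tested. The list was made from annotation words, so it can also hold kinase inhibitors and metabolic kinases. Without WT replicate 2, WT replicate 3 or PRP8Aa prp8bb replicate 3 the list had no rise and 1 fall, and without PRP8Aa prp8bb replicate 1 it had 1 of each. Rises numbered 2 without WT replicate 1 or PRP8Aa prp8bb replicate 2.

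**Figure D4:**
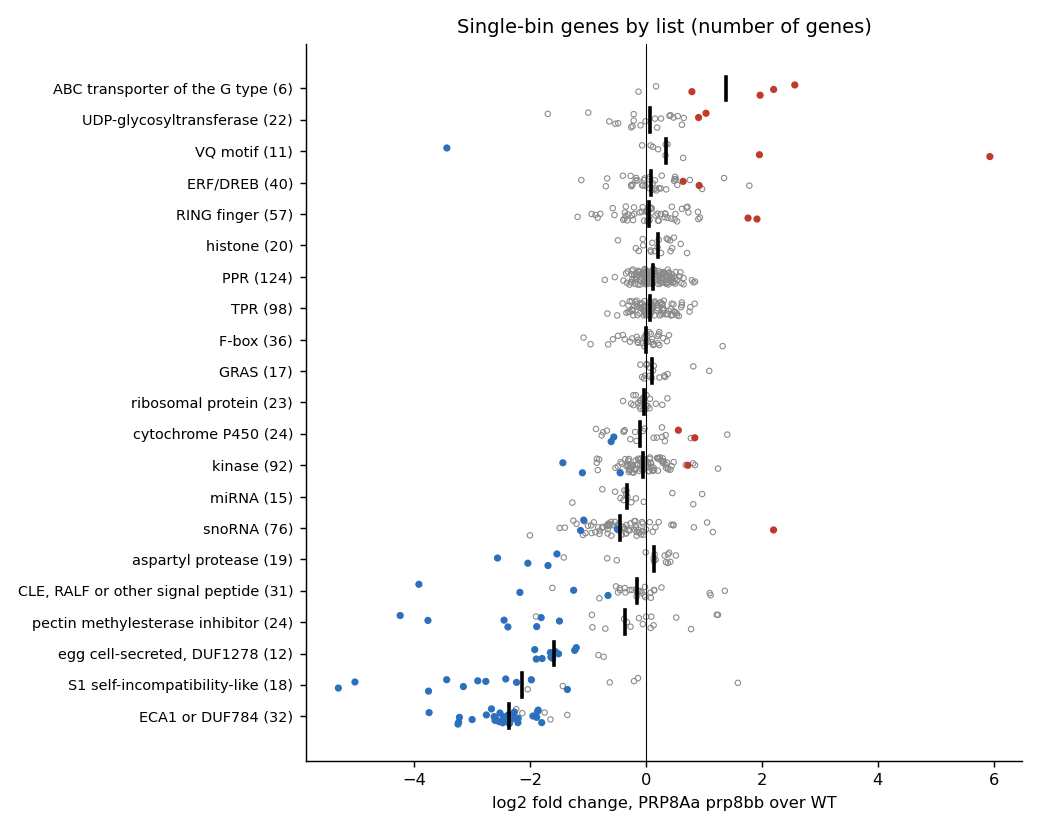
Log2 fold change, PRP8Aa prp8bb over WT (x axis), of single-bin genes by list (rows, with the number of genes). Open points did not pass an adjusted p of 0.05, filled red points rose, filled blue points fell, and black bars are medians; DUF784 has the lowest median (-2.37), and PPR, TPR, F-box and histone genes have no filled point.

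Risen single-bin genes did not gather in a family of comparable size. The list with most rises for its size was the ABC transporters of the G type, membrane transporters that export lipids and wall precursors such as suberin, grouped here after the values were seen. Of 6 members 4 rose, where 3.05% of all genes tested were called higher, and the 6 had a median of 1.38 (log2 fold change). Without ABCG20, which only PRP8Aa prp8bb libraries admitted, 3 of 5 rose. ABCG1 had 70.0, 74.3 and 80.3 CPM in PRP8Aa prp8bb libraries, against 21.3, 15.7 and 20.6 CPM in WT libraries (log2 fold change 1.97, SE 0.13, adjusted p = 0.000123, edgeR). ABCG20 had 2.57, 2.74 and 2.65 CPM in PRP8Aa prp8bb libraries, against 0.467, 0.312 and 0.542 CPM in WT libraries (log2 fold change 2.57, adjusted p = 0.00397). Both rose without any 1 library. ABCG6 rose by 2.20 (adjusted p = 0.0177), and did not pass without WT replicate 3, PRP8Aa prp8bb replicate 2 or PRP8Aa prp8bb replicate 3 (adjusted p up to 0.0951). ABCG8 rose by 0.79 (adjusted p = 0.0399), and passed only without PRP8Aa prp8bb replicate 1, with an adjusted p up to 0.168 without each other library. The count of risen ABCG genes was 2 without WT replicate 3, PRP8Aa prp8bb replicate 2 or PRP8Aa prp8bb replicate 3. ABCG5 and ABCG4 had log2 fold changes of 0.18 (adjusted p = 0.695) and -0.13 (adjusted p = 0.837).

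The risen gene of smallest p was AT2G34810, of the berberine-bridge oxidases, at 183, 185 and 187 CPM in PRP8Aa prp8bb libraries, against 69.2, 57.6 and 58.8 CPM in WT libraries (log2 fold change 1.58, SE 0.10, adjusted p = 0.000108, edgeR). Of the 9 oxidases of this type, listed after the values were seen, 2 rose and 2 fell. These calls are 44.4% of the list, beside 5.85% of all genes tested. With 1 fallen gene that only WT libraries admitted left out, 2 of 8 rose and 1 fell. Among all 9 the counts of rises and falls were 1 and 2 without WT replicate 2, and 1 and 1 without WT replicate 3. They were 1 and 0 without PRP8Aa prp8bb replicate 3. AT3G22910, a calcium-pump-like ATPase, had 42.2, 38.7 and 37.2 CPM in PRP8Aa prp8bb libraries, against 15.4, 16.1 and 17.1 CPM in WT libraries (log2 fold change 1.28, adjusted p = 0.000309). PDC2, a pyruvate decarboxylase of fermentation, had 40.0, 38.5 and 40.2 CPM in PRP8Aa prp8bb libraries, against 15.4, 10.4 and 13.9 CPM in WT libraries (log2 fold change 1.59, adjusted p = 0.00041). KCS8, a fatty acid elongase, rose by 0.85 (adjusted p = 0.00192). Replicates of each group lay close together in these genes, the ranges did not overlap, and each kept its call without any 1 library. They were chosen after their values were seen.

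The highest log2 fold changes among the risen genes belong to genes near 0 in WT. The first 3 below met the CPM minimum through PRP8Aa prp8bb libraries only, so they had to differ, and their ratios are a description. AT1G21550, a calcium-binding EF-hand gene, had 256 counts over the PRP8Aa prp8bb libraries and 3 over the WT libraries, a ratio of 85.0 with an exact 95% counting interval of 28.8 to 415 (adjusted p = 0.000152, edgeR). AT1G35830, a VQ motif gene, had 82 counts against 1, a ratio of 81.7 with an interval of 14.3 to 3266 (adjusted p = 0.00222). AT4G35720, of unknown function, had 98 counts against 3, a ratio of 32.5 with an interval of 10.8 to 161 (adjusted p = 0.0032). WT replicate 1, most of whose counts are even, held no count of these 3 genes. Without that library the ratios were 63.8 (21.6 to 311), 61.3 (10.7 to 2451) and 24.4 (8.12 to 121) in the same order. With all libraries the fitted log2 fold changes were 6.24, 5.93 and 4.86. They were 7.00 and 7.77 for AT1G21550 and AT1G35830 without WT replicate 3. For AT4G35720 they were 7.98 without WT replicate 2 and 4.25 without WT replicate 3. AT5G23970, an acyltransferase of the HXXXD type, had 27.3, 34.2 and 35.7 CPM in PRP8Aa prp8bb libraries, against 3.27, 0.936 and 2.09 CPM in WT libraries (log2 fold change 4.01, SE 0.31, adjusted p = 0.000309).

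A pair of genes had a high level in PRP8Aa prp8bb ovules. AT3G12000, related to the S-locus glycoprotein SLR1 of Brassica, had 263, 311 and 285 CPM in PRP8Aa prp8bb libraries, against 15.2, 1.25 and 7.97 CPM in WT libraries (log2 fold change 5.20, SE 0.72, adjusted p = 0.0159, edgeR). AT2G33850, an E6-like protein, had 308, 234 and 310.2 CPM in PRP8Aa prp8bb libraries, against 19.6, 1.72 and 9.98 CPM in WT libraries (log2 fold change 4.82, SE 0.74, adjusted p = 0.0219). The 3 WT libraries differ among themselves in both genes, with WT replicate 1 highest and WT replicate 2 lowest. Without WT replicate 1 the log2 fold changes were 5.95 for AT3G12000 and 5.60 for AT2G33850. AT3G12000 did not pass without WT replicate 3, PRP8Aa prp8bb replicate 2 or PRP8Aa prp8bb replicate 3 (adjusted p up to 0.0828), nor AT2G33850 without these or PRP8Aa prp8bb replicate 1 (adjusted p up to 0.107). The part of neighbouring floral tissue in these libraries was not tested for these genes; the pollen, green, petal and stamen marker sums given above are the values at hand. AT2G21480, a receptor-like kinase of the pollen marker list, is itself a single-bin gene and had 15.9, 11.7 and 15.6 CPM in PRP8Aa prp8bb libraries, against 9.35, 7.64 and 9.29 CPM in WT libraries. It rose by 0.72 (adjusted p = 0.0379), and did not pass without WT replicate 2, WT replicate 3, PRP8Aa prp8bb replicate 1 or PRP8Aa prp8bb replicate 3 (adjusted p up to 0.177).

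**Figure D5:**
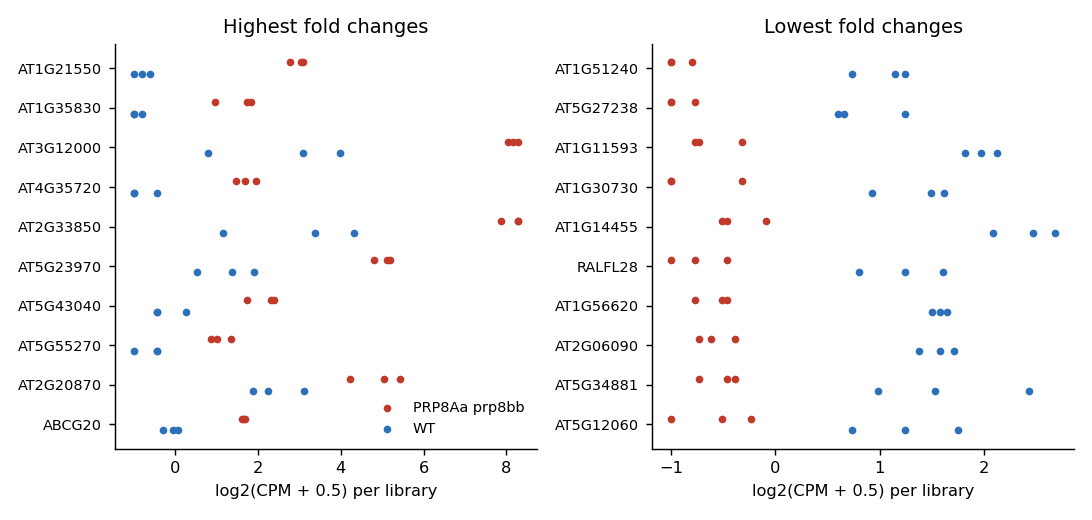
log2(CPM + 0.5) per library (x axis) for the 10 risen (left) and 10 fallen (right) genes of largest log2 fold change (rows) among those chosen for CPM ranges that do not overlap, PRP8Aa prp8bb libraries in red above and WT libraries in blue below. The choice fixes the gap between the groups, and only WT libraries admitted the 10 fallen genes; AT3G12000 and AT2G33850 have the highest levels in PRP8Aa prp8bb libraries.

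Smaller counts of rises were found in lists of regulators and enzymes. Of 40 ERF or DREB transcription factors 2 rose, of 57 genes of the RING finger list 2 rose, of 22 UDP-glycosyltransferases 2 rose, and of 38 arabinogalactan, extensin or proline-rich genes 2 rose. None of these lists had a fall. As shares the rises are 5%, 3.51%, 9.09% and 5.26%, beside 3.05% of all genes tested that were called higher. The lists were made from annotation words, and AT1G12610 is in both the ERF or DREB and the RING finger list. The ERF or DREB rises numbered 0 without PRP8Aa prp8bb replicate 3, 1 without WT replicate 2, WT replicate 3 or PRP8Aa prp8bb replicate 2, and 5 without PRP8Aa prp8bb replicate 1. The RING finger rises numbered 1 without WT replicate 3 or PRP8Aa prp8bb replicate 3, and the arabinogalactan group's 1 without each WT library or PRP8Aa prp8bb replicate 1. AT1G20823, a RING finger gene, had 20.1, 41.2 and 22.7 CPM in PRP8Aa prp8bb libraries, against 7.01, 8.11 and 6.96 CPM in WT libraries (log2 fold change 1.92, adjusted p = 0.006, edgeR). ELP, an extensin-like protein, had 61.4, 81.2 and 50.2 CPM in PRP8Aa prp8bb libraries, against 23.1, 31.6 and 28.3 CPM in WT libraries (log2 fold change 1.21, adjusted p = 0.00605). AT4G27560 and AT4G19460, UDP-glycosyltransferases, rose by 1.04 (adjusted p = 0.00465) and 0.91 (adjusted p = 0.00595). The ranges of these genes did not overlap, and each kept its call without any 1 library. Of 12 single-bin early-response genes, out of 18 listed, 1 rose: ERF6, a transcription factor of ethylene and stress signalling, had 10.5, 10.7 and 10.4 CPM in PRP8Aa prp8bb libraries, against 5.38, 5.30 and 6.04 CPM in WT libraries (log2 fold change 0.92, adjusted p = 0.00931), with an adjusted p of 0.0548 without PRP8Aa prp8bb replicate 3. Cytochrome P450 genes rose in 2 and fell in 2 of 24 cases, SAUR genes in 1 and 1 of 29, late embryogenesis abundant genes in 1 and 1 of 12, and VQ genes in 2 and 1 of 11. As shares called these are 16.7%, 6.90%, 16.7% and 27.3%, beside 5.85% of all genes tested, and each rests on 4 genes or fewer. Without PRP8Aa prp8bb replicate 3 no gene of the P450, SAUR and late embryogenesis lists was called, and 1 VQ gene rose and none fell. Without WT replicate 3 the counts of rises and falls were 1 and 1 for P450, 0 and 0 for SAUR and late embryogenesis, and 1 and 1 for VQ genes. P450 genes had 0 rises and 1 fall without WT replicate 2, 1 of each without PRP8Aa prp8bb replicate 2, 1 rise and 3 falls without WT replicate 1, and 3 rises and 1 fall without PRP8Aa prp8bb replicate 1. SAUR genes had 2 rises without PRP8Aa prp8bb replicate 1 and no fall without WT replicate 2 or PRP8Aa prp8bb replicate 2, and late embryogenesis genes had no call without PRP8Aa prp8bb replicate 2. Of the VQ genes 1 was admitted by each group alone, and of the other 9 genes 1 rose and none fell; without its gene admitted by WT libraries only, the late embryogenesis list had 1 rise and no fall among 11.

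Signalling genes and an enzyme gene also changed. CML41, a calmodulin-like protein, had 3.55, 0.811 and 3.26 CPM in PRP8Aa prp8bb libraries, against 9.11, 16.9 and 13.5 CPM in WT libraries (log2 fold change -2.34, adjusted p = 0.0178, edgeR). MYC4, a transcription factor of jasmonate signalling, had 12.7, 12.9 and 11.6 CPM in PRP8Aa prp8bb libraries, against 20.6, 27.5 and 21.3 CPM in WT libraries (log2 fold change -0.90, adjusted p = 0.00653). GRI, a small protein of the Stig1 family, had 114, 91.4 and 110.2 CPM in PRP8Aa prp8bb libraries, against 64.5, 71.0 and 62.1 CPM in WT libraries (log2 fold change 0.68, adjusted p = 0.00692). The ranges did not overlap in any of the 3. CML41 and GRI did not pass without WT replicate 3 or PRP8Aa prp8bb replicate 3 (adjusted p up to 0.0826 and 0.0579), nor MYC4 without PRP8Aa prp8bb replicate 3 (adjusted p = 0.0527). CYP86C1, a cytochrome P450, fell by 0.60 on the log2 scale (adjusted p = 0.0106) and did not pass without PRP8Aa prp8bb replicate 3 (adjusted p = 0.0822). MYC4 and GRI were chosen after their values were seen.

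The 4 protein-coding single-bin genes of highest mean CPM, a scale not corrected for length, did not pass the test by edgeR. CAB1, a chlorophyll-binding protein of the light-harvesting complex, had 1899.6, 2233 and 2288 CPM in PRP8Aa prp8bb libraries, against 2395, 1819.7 and 2019 CPM in WT libraries (log2 fold change 0.04, adjusted p = 0.906, edgeR). LHB1B2, of the same complex, had 1096, 2798 and 1687 CPM in PRP8Aa prp8bb libraries, against 1653, 1509.9 and 1550.4 CPM in WT libraries (log2 fold change 0.24, adjusted p = 0.732). The ranges overlapped in both genes, with PRP8Aa prp8bb replicate 2 highest for LHB1B2. SBT1.3, a subtilisin-like protease, had 800.0, 744 and 823 CPM in PRP8Aa prp8bb libraries, against 901, 1142 and 1049 CPM in WT libraries, with ranges that did not overlap (log2 fold change -0.39, adjusted p = 0.0952 by edgeR and 0.0325 by DESeq2). Its adjusted p by edgeR was 0.0331 without WT replicate 1 and up to 0.299 without each other library. UBQ5, a ubiquitin gene, had a log2 fold change of -0.06 (adjusted p = 0.804).

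Several lists of intronless genes had no call. The lists were made from annotation words, so the tetratricopeptide repeat (TPR) list can hold PPR genes and is not a separate family. None of 124 PPR genes, which act on organelle RNA, passed the test, with a median log2 fold change of 0.12 and 10 genes at an unadjusted p under 0.05, a level that 19% of all genes tested passed. DESeq2 called 1. No call was made among 98 genes of the TPR list (median 0.07, 6 at an unadjusted p under 0.05, DESeq2 0), 36 F-box genes (median 0.00, 3 and DESeq2 1), 23 ribosomal protein genes (1 at an unadjusted p under 0.05, DESeq2 0), 17 GRAS genes (4 and DESeq2 1) or 10 plant U-box genes (1 and DESeq2 1). Limma-voom called none in these 6 lists. The PPR gene of highest mean CPM, PPR336, had 62.4, 46.6 and 51.5 CPM in PRP8Aa prp8bb libraries, against 59.1, 71.2 and 60.0 CPM in WT libraries (log2 fold change -0.25, adjusted p = 0.346, edgeR). RGA1, a DELLA repressor of gibberellin signalling and the GRAS gene of highest mean CPM, had 152, 172 and 155 CPM in PRP8Aa prp8bb libraries, against 168, 173 and 161 CPM in WT libraries (log2 fold change -0.07, adjusted p = 0.758). The ranges overlapped in both genes. An adjusted p above the threshold does not show that these genes were equal.

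Histone genes, whose replication-dependent members have no introns, had a median log2 fold change of 0.21 over 20 genes, with 15 of 20 positive. None passed the threshold and none was called by DESeq2. An unadjusted p under 0.05 was found in 5 of 20, a level that 19% of all genes tested passed. HTB4, an H2B gene, had 340.0, 503 and 424 CPM in PRP8Aa prp8bb libraries, against 401, 385 and 354 CPM in WT libraries (log2 fold change 0.15, adjusted p = 0.611, edgeR). HTB1 had 97.1, 104 and 99.5 CPM in PRP8Aa prp8bb libraries, against 63.3, 87.3 and 80.4 CPM in WT libraries (log2 fold change 0.38, adjusted p = 0.117), with ranges that did not overlap. Without PRP8Aa prp8bb replicate 1, 2 histone genes were called higher and 1 lower. Copies of a histone can be near-identical, so the split of reads among them is uncertain.

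Among the non-coding single-bin genes are small nucleolar RNAs (snoRNAs), which guide chemical modification of other RNAs. Of 76 snoRNAs, 1 rose and 3 fell, and these calls are 5.26% of the list, under the 5.85% of all genes tested. Their median log2 fold change was -0.44, beside -0.01 over all genes tested, and 64 of 76 were negative. The summed level of the 76, which a few abundant snoRNAs set, did not follow: it was 1704, 3475 and 2514 CPM in PRP8Aa prp8bb libraries, against 2354, 2328 and 2535 CPM in WT libraries, with overlapping ranges. Libraries of a group differed: the median deviation of a snoRNA from its own mean was 0.07, -0.39 and -0.17 log2 units in PRP8Aa prp8bb libraries, against -0.05, 0.34 and 0.33 in WT libraries, so PRP8Aa prp8bb replicate 1 lay above WT replicate 1. No fall was called without WT replicate 2, WT replicate 3 or PRP8Aa prp8bb replicate 3. The snoRNA that rose and the shortest that fell are shown, read from RefSeq TAIR10.1, with CTGA near the 3′ end (the D box of C/D snoRNAs) or ACA before the last 3 bases (of H/ACA snoRNAs) in capitals where found. AT5G08495 lies at chr5:22828549-22828703 (plus strand) and AT1G09467 at chr1:27984975-27985042 (minus strand).
AT5G08495: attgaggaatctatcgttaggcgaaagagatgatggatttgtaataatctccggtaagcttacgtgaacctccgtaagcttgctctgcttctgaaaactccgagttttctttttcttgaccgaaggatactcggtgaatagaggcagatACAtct
AT1G09467: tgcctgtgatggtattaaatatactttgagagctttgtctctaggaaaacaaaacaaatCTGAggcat

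AT5G08495 had 7.34, 17.8 and 11.3 CPM in PRP8Aa prp8bb libraries, against 2.45, 2.81 and 2.55 CPM in WT libraries (log2 fold change 2.20, SE 0.33, adjusted p = 0.00481, edgeR), and rose without any 1 library. AT1G09467 had 3.55, 1.82 and 3.26 CPM in PRP8Aa prp8bb libraries, against 6.78, 5.69 and 6.04 CPM in WT libraries (log2 fold change -1.07, adjusted p = 0.0462). It passed only without PRP8Aa prp8bb replicate 1, with an adjusted p up to 0.157 without each other library. U4atac, an snRNA of the minor spliceosome, had 6.28, 21.4 and 22.2 CPM in PRP8Aa prp8bb libraries, against 5.38, 7.02 and 5.96 CPM in WT libraries. Its ranges overlapped through PRP8Aa prp8bb replicate 1 (log2 fold change 1.42, adjusted p = 0.161 by edgeR and 0.00404 by DESeq2). None of 15 miRNA precursors or 4 tRNAs passed the test. An unadjusted p under 0.05, found in 19% of all genes tested, was found in 2 miRNA precursors and no tRNA. DESeq2 and limma-voom each called 1 precursor lower and no tRNA. The RNA of highest mean CPM, ENSRNA049493837, is not listed in RefSeq and had 1013, 2289 and 1685 CPM in PRP8Aa prp8bb libraries, against 4471, 3370.4 and 3525 CPM in WT libraries. The ranges did not overlap, and its log2 fold change was -1.19 (adjusted p = 0.0509 by edgeR and 4.02e-05 by DESeq2). Of 21 single-bin genes whose identifiers start with AT2G07 none passed by edgeR, DESeq2 or limma-voom, with 3 at an unadjusted p under 0.05 in edgeR. Most of these identifiers belong to a stretch of chromosome 2 that copies the mitochondrial genome, so reads may be shared with that genome. The snoRNAs AT2G07605 and AT2G07615 are in the list by identifier alone, and their place was not checked.

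In the authors' deposited table of differential expression there are 1543 genes, of which 231 are single-bin genes, 98 higher and 133 lower. Of the 183 calls made here, 180 are in the authors' deposited table, all with the same sign, which is 98.4% of the calls here and 77.9% of the single-bin genes listed there. Just inside the CPM minimum lay SNOR95, a snoRNA with 1.03 CPM in its library of third-highest level, and just outside it lay AT1G26225 with 0.977 CPM.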

How the data were processed

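The labels describe stranded libraries of total ovule RNA after removal of rRNA. The submitters' processing notes name Trimmomatic, STAR, DESeq2, Subread 1.6.0 with featureCounts, and the TAIR10 build. The gene and exon bin counts are raw featureCounts output, per the file headers. The authors' deposited table gives log2 fold changes and adjusted p-values of their comparison. The intron retention table names no sample and was not used.

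All genes were tested with edgeR 4.0.16 under R 4.3.3 (glmQLFTest after a robust glmQLFit, with TMM factors and filterByExpr and without covariates). A call is an adjusted p under 0.05 by Benjamini-Hochberg. Replicates varied by 14.9% (common biological coefficient of variation). Fold changes are PRP8Aa prp8bb over WT. CPM values use TMM-scaled library sizes, except in the CPM minimum, which uses total counts. Each SE was derived from the fold change and its F statistic. The script was tested on simulated data. DESeq2 1.42.0 and limma 3.58.1 gave alternatives. Count ratios have exact 95% intervals, which cover counting error only. Labels call the replicates biological but name no separate plants. The p-values therefore reflect only how these libraries scatter, which may partly be technical.

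Genes were assigned to 26 word lists and by kind in the RefSeq TAIR10.1 annotation (words in symbol, product or synonyms), plus 9 word lists made after values were seen. The wordings for C2H2 zinc finger and kinase genes were tightened after values were seen: the earlier wordings held 23 and 100 genes, of which 4 and 8 were dropped and 1 was added, and the earlier calls were 1 higher and 2 lower and 2 higher and 4 lower. Named genes are the 10 of largest change in each direction with non-overlapping ranges and at least 1 CPM in the higher group, up to 4 called members of each list, the most abundant member where none passed, the 10 of highest mean CPM, the edge of the CPM minimum, and EC1 and histone genes; 1 further family is not reported here; others are said to be chosen after values were seen, as are the DUF784, DUF1278, S1 and aspartyl protease genes named. Members and lists were chosen with earlier results of these data known.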

Additional observations from a re-analysis of the deposited data

How the results depend on the processing

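Of the 183 single-bin genes called, DESeq2 called 181, upper-quartile factors 179, no filter on low counts 177, limma-voom 165 and bin counts 150, and all 183 kept their direction in every setting that tested them (1 mitochondrial RNA was not tested without organelle genes). Leaving out 1 library at a time gave 29 to 101 higher and 39 to 124 lower calls, 2.91% to 9.23% of single-bin genes, and 68 (without PRP8Aa prp8bb replicate 3) to 157 of the 183 were still called. For multi-bin genes weighted by level the share was 3.24% to 8.43% and the median log2 fold change -0.0583 to -0.0134. With a minimum of 5 CPM in 3 libraries 42 single-bin genes were lower and 51 higher. Without the 4 secreted families, an alternative chosen after seeing the data, 53 were lower and 75 higher. The median of single-bin genes was 0.0163 with bin counts. The weighted multi-bin median was -0.000376 with strata of level per length and -0.0745 with strata of exonic length. The cause of these shifts was not tested.

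With the replicate number as a block, 58 single-bin genes were higher and 90 lower (6.33%), where 2.4% and 2.19% of all genes tested were called (4.59% in all) and 5.78% of multi-bin genes weighted by level, and 134 of the 183 were still called. Same-numbered libraries did not deviate together (correlations of -0.05, -0.05 and 0.10), and 1 of 3 PRP8Aa prp8bb libraries correlated best with its own number, so the numbers were not taken as pairs. Depth limits the precision of genes of low level, whose ratios carry the counting intervals printed with them. Likewise, no called gene among the 133 named reversed, and 41 to 73 of the 84 called ones were still called without 1 library.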
